A study of Mus musculus with 6 samples.

Results

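The genes described here encode metabotropic glutamate receptors. They were chosen by family name and not by value, but with earlier results of these data known. The 6 members are Grm2, Grm3, Grm4, Grm5, Grm7 and Grm8, out of 24972 genes in the deposited table. All 6 were among the 15800 genes tested, which had at least 10 normalized counts in at least 3 libraries. The table lists 2 further genes of the family, which are not analysed here. RNA was sequenced from dissected cortices of mice at postnatal day 7 (P7), with 3 libraries per genotype. Wildtype mice carried Zmiz1 f/f, a floxed Zmiz1 gene, without Cre, and Zmiz1-KO mice carried Zmiz1 f/f together with Emx1Cre. Both groups thus shared the floxed allele and the age, and the comparison asks what differs in the cortex when Cre deletes Zmiz1, a transcriptional coregulator, in cortical progenitors. Emx1-driven Cre acts in the progenitors of cortical excitatory neurons and glia, while interneurons, microglia and vessel cells arise elsewhere and remain in the sample. Whether a library holds 1 animal or a pool is not given in the sources used here, and p values measure only the spread between these libraries.

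Metabotropic glutamate receptors are G-protein-coupled receptors that respond to synaptically released glutamate more slowly than the ion channel receptors. They fall into groups by sequence and coupling. Group I receptors, among them mGluR5 (Grm5), couple to Gq and phospholipase C and lie mostly at the edge of the postsynaptic site, where Homer proteins tether them. Group II (Grm2, Grm3) and group III (Grm4, Grm7, Grm8) receptors couple to Gi and Go, lower cyclic AMP and act mostly as brakes on transmitter release, and mGluR3 and mGluR5 are also found on astrocytes.

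The sums of normalized counts per library were 32661979 to 33239707, which follow the authors' normalization. A single read was worth about 1.83 to 2.11 normalized counts, which gives an estimated 15494888 to 17858395 counted reads per library. Zmiz1 had 7836 ± 339 normalized counts in wildtype and 9794 ± 143 in the libraries labelled Zmiz1-KO (SD, n = 3 per group), so the targeted gene was higher and not lower under the label of its deletion (log2 fold change 0.32, limma adjusted p = 0.00125), and the groups are therefore named by their label. Every direction given here rests on these labels, and exchanged labels would turn the sign of each difference. The table holds 1 value per gene, and a transcript that lacks the floxed exons would be counted with the rest. Wildtype replicate 3 and replicate 2 labelled Zmiz1-KO had 25307 and 24403 normalized counts of Xist, against 12.9 to 57.3 in the other 4 libraries, and at most 1.89 of the Y-linked gene Ddx3y, against 1250 to 1483, so each group holds 1 female and 2 male libraries. The labels name progenitors in the treatment note, but the vesicular glutamate transporter gene Slc17a7 was high, with 19640 ± 1127 normalized counts (SD, n = 3) in wildtype. This is 1 gene and does not measure how mature the tissue was. Markers of striatal projection neurons summed to 9224 to 12655 normalized counts in wildtype, against 12993 to 14474 under the label Zmiz1-KO. Markers of GABAergic interneurons summed to 12724 to 16858 and 17023 to 19141. Wildtype replicate 1 held the lowest sum of both lists. Wildtype replicates 2 and 3 had 11995 and 12655 of the striatal markers, and 16858 and 14461 of the interneuron markers. In both lists all 6 genes were above 0 in log2 fold change and 0 were called. Oligodendrocyte precursor markers summed to 12185 to 12875 and 11274 to 11522, with 4 of 5 genes below 0 and 0 called. In the remaining lists the sums overlapped between the groups. Choroid plexus markers ran from 241 to 8254 in wildtype and from 286 to 4763 in the other group. Of the 12 marker lists none had a gene listed at 0 in all libraries.

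None of the 6 receptor genes passed an adjusted p of 0.05 (limma with Benjamini-Hochberg adjustment over all tested genes), against 0.411% of all tested genes that did. Of the 6 estimates, 5 were below 0 in the libraries labelled Zmiz1-KO, as were 50.1% of all tested genes, and 1 was above. The log2 fold changes ran from -0.17 to 0.06 with a median of -0.13, beside a median of -0.00018 over all tested genes. At an unadjusted p under 0.05, 3 of the 6 passed, namely Grm3, Grm5 and Grm7, all of them lower, while of all tested genes 5.84% were lower and 5.13% higher at that p, 11.0% in all. Limma-voom also called 0 of the 6 after adjustment and 3 without it. Without adjustment the count was 2 under upper-quartile scaling and 2 after correction for GC content and length. With each library left out it ran from 1 to 4. Only for Grm7 did the 3 values of the groups not overlap, as held for 16.3% of all tested genes, with 8.16% lower and 8.1% higher. With 3 libraries against 3, the smallest p of the exact permutation test, two-sided, is 0.1. In bulk tissue, fewer cells that express a receptor and less receptor RNA per cell cannot be told apart.

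**Figure D1:**
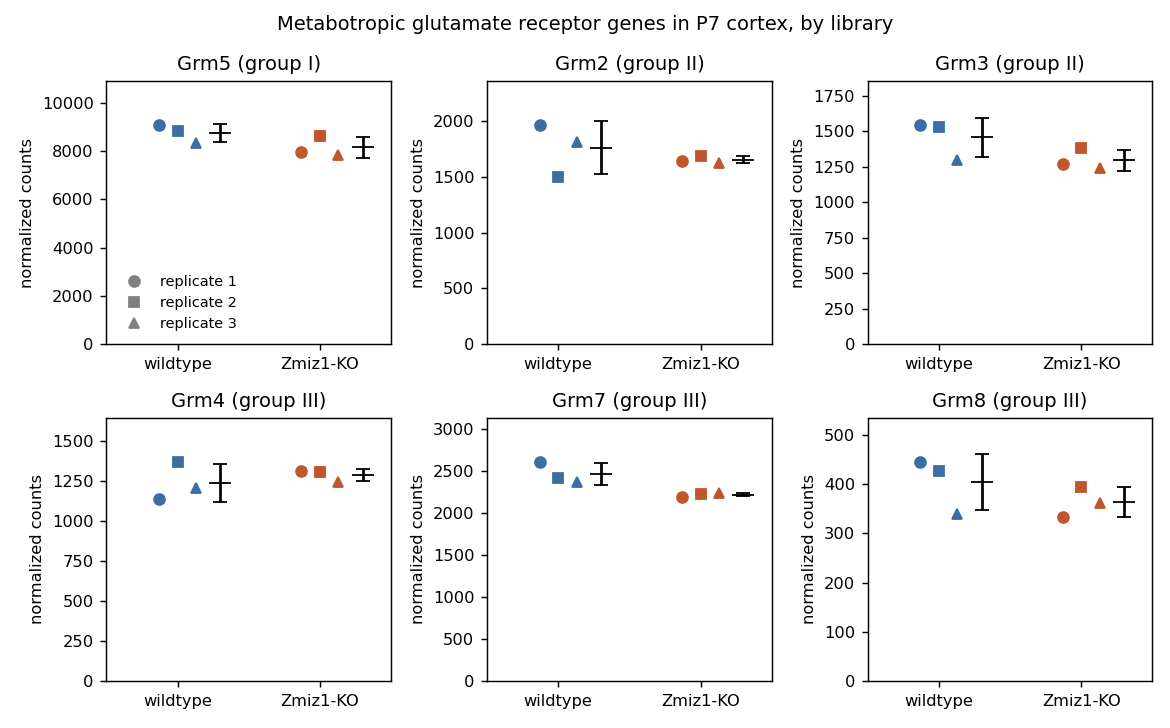
Normalized counts of each receptor gene in the 3 wildtype and 3 Zmiz1-KO libraries (symbols mark the replicate number), with the mean and SD beside them. The groups overlap in all panels but that of Grm7, where the libraries labelled Zmiz1-KO lie between 2193 and 2234 and wildtype between 2363 and 2609.

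The promoters of Grm2, Grm3 and Grm7 are shown to set side by side the starts of the group II pair and of the gene whose groups did not overlap. Of the 6 members, 4 had a window in the RefSeq table of GRCm38.p6, which holds 250 bases before and 50 after a gene's start, and the window nearest to the annotated start was taken. Capitals mark GC boxes, GGGCGG or CCGCCC, the sites of Sp1-like factors, and adjacent boxes can run into each other. The sequences are written 5′ to 3′ on the strand of the gene, with Grm2 at chr9:106656060-106656359 on the minus strand, Grm3 at chr5:9725303-9725602 on the minus strand and Grm7 at chr6:110645348-110645647 on the plus strand.
Grm2: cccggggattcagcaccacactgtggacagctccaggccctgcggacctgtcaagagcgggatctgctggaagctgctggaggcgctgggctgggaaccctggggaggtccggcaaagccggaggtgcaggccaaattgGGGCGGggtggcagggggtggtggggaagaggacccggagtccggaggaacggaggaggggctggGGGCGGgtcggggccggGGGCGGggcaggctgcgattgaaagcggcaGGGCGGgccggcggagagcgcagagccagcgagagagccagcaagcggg
Grm3: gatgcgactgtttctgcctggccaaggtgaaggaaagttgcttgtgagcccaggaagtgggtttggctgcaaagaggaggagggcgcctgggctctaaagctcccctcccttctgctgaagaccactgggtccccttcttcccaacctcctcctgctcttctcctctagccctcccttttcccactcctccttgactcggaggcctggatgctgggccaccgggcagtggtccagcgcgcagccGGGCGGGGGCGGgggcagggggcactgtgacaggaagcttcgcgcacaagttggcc
Grm7: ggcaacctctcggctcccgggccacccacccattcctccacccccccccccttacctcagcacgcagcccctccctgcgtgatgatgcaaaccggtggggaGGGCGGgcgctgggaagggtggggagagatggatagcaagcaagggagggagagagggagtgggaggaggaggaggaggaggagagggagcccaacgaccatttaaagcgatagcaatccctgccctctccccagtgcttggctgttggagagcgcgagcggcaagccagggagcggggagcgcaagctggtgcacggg
Grm2 held 4 GC boxes, Grm3 held 2 and Grm7 held 1, and 35.7% of the 32851 promoter windows in the table held at least 1. The GC content was 72.0% in Grm2, 63.7% in Grm3 and 66.7% in Grm7, beside a median of 52.7% over all windows. A cyclic AMP response element (TGACGTCA, its own reverse complement), an EGR site (GCGTGGGCG or CGCCCACGC) and an AP-1 site (TGACTCA or TGAGTCA) were also searched on both strands. None of these motifs occurred in the windows of Grm2, Grm3, Grm7 or Grm8, and over all windows they occurred in 1.79%, 0.612% and 5.20%.

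Grm5, the Gq-coupled member, had the highest level per kilobase of the receptor genes. It lies on chromosome 7 of GRCm38 from 87584168 to 88134907 and spans 551 kb. The wildtype libraries had 9078, 8842 and 8336 normalized counts in replicates 1, 2 and 3, and those labelled Zmiz1-KO had 7955, 8636 and 7849. Wildtype replicate 3 was the lowest of its group and replicate 2 labelled Zmiz1-KO the highest of its own, and these 2 libraries made the groups overlap. The means were 8752 ± 379 and 8147 ± 427 (SD, n = 3 per group), a difference of -0.10 on the log2 scale (standard error [SE] 0.045, adjusted p = 0.402 in limma; exact permutation p = 0.2). The 95% interval of the change in percent, not adjusted for the number of genes, ran from -12.9% to -0.58%. At an estimated 3884 to 4722 reads per library, counting error was at most 1.60% of the value, below the 4.33% spread between wildtype libraries. After correction for GC content and transcript length, the log2 fold change of Grm5 was -0.052 (limma adjusted p = 0.712).

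Grm2 and Grm3 encode the group II receptors, of which mGluR2 is mostly presynaptic and mGluR3 is also made by astrocytes and responds to the peptide transmitter N-acetylaspartylglutamate (NAAG). Grm2 lies on chromosome 9 from 106643095 to 106656082 and spans only 13.0 kb, whereas Grm3 spans 240 kb on chromosome 5 from 9485541 to 9725170. For Grm2, wildtype replicates 1, 2 and 3 held 1967, 1503 and 1814 normalized counts, against 1647, 1688 and 1626 under the label Zmiz1-KO. The wildtype values lay on both sides of the other group, and replicate 2 was the lowest of all 6. Its means of 1762 ± 236 and 1654 ± 31.6 (SD, n = 3 per group) gave a log2 difference of -0.082 (SE 0.084, adjusted p = 0.791 in limma; exact permutation p = 0.6), and the 95% interval ran from -16.9% to 7.35%. Without wildtype replicate 1 the difference of Grm2 was 0.0016, and without wildtype replicate 2 it was -0.19. The sequencing kit does not keep the strand, and 9.60% of the exonic bases of Grm2 overlap the antisense gene Gm28111, so reads of the pair cannot be told apart there.

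For Grm3 the wildtype replicates 1, 2 and 3 held 1545, 1530 and 1301 normalized counts, against 1267, 1380 and 1241 under the label Zmiz1-KO. As for Grm5, wildtype replicate 3 was low and replicate 2 labelled Zmiz1-KO was high, and the groups overlapped through them. The means were 1458 ± 137 and 1296 ± 74.2 (SD, n = 3 per group). Grm3 thus had the largest estimate in size of the 6, -0.17 on the log2 scale (SE 0.070, adjusted p = 0.379 in limma; exact permutation p = 0.2), with a 95% interval from -19.6% to -1.34%. These same 2 libraries are those with high Xist, so leaving them out had to widen the difference of Grm3. Grm3 then passed the threshold, at -0.29 on the log2 scale (adjusted p = 0.0462 in limma, n = 2 per group). That fit called 146 of the 15800 tested genes, against 65 with all libraries. With all libraries kept and Xist as a covariate, Grm3 was at -0.17 (adjusted p = 0.398 in limma). The summed markers of astrocytes were 28843 to 30082 normalized counts in wildtype, against 27952 to 29428 under the label Zmiz1-KO. Of these 8 markers 1, the water channel gene Aqp4, was called lower and 0 higher, against 0.247% and 0.165% of all tested genes. Their median log2 fold change was -0.033, with 6 below 0 and 2 above, Gfap at 0.055 and Gja1 at 0.083. The part of the astrocyte, precursor, interneuron and striatal markers in the values of the receptor genes was not tested.

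The group III genes code for presynaptic receptors of differing affinity for glutamate. mGluR7 sits in the active zone itself, mGluR8 on some of the same terminals, and mGluR4 is best known from the cerebellum. Grm7 lies on chromosome 6 of GRCm38 from 110645581 to 111567230 and, at 922 kb, is the longest of the 6 genes. Wildtype replicates 1, 2 and 3 held 2609, 2408 and 2363 normalized counts of Grm7, against 2193, 2220 and 2234 in replicates labelled Zmiz1-KO. Each wildtype value was above each value of the other group, and the latter lay closer together. The means were 2460 ± 131 and 2216 ± 20.6 (SD, n = 3 per group), a difference of -0.15 on the log2 scale (SE 0.050, adjusted p = 0.248 in limma; exact permutation p = 0.1). The 95% interval ran from -16.2% to -3.07%. By unadjusted p, 0.00782 in limma, Grm7 was number 496 of the 15800 tested genes.

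Grm4, on chromosome 17 from 27422387 to 27521403, was the only receptor gene with an estimate above 0. Wildtype had 1142, 1373 and 1206 normalized counts in replicates 1, 2 and 3, and the libraries labelled Zmiz1-KO had 1314, 1309 and 1248. Replicate 2 was the highest and replicate 1 the lowest of all 6 libraries, so wildtype enclosed the other group. With means of 1240 ± 120 and 1291 ± 36.6 (SD, n = 3 per group), the log2 difference was 0.06 (SE 0.067, adjusted p = 0.809 in limma; exact permutation p = 0.6), and the 95% interval ran from -5.44% to 15.1%.

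Grm8, on chromosome 6 from 27275119 to 28135178, had the lowest level per kilobase, at 446, 428 and 340 normalized counts in the wildtype replicates 1, 2 and 3, against 334, 394 and 362 under the label Zmiz1-KO. Wildtype replicate 3 lay among the values of the other group. The means were 405 ± 56.9 and 363 ± 30.1 (SD, n = 3 per group), and the log2 difference of -0.15 (SE 0.11, adjusted p = 0.678 in limma; exact permutation p = 0.3) had a 95% interval from -23.3% to 6.26%. At an estimated 165 reads in the lowest library, counting error alone was 7.79% of the value of Grm8, and the standard error of its difference was the widest of the 6.

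**Figure D2:**
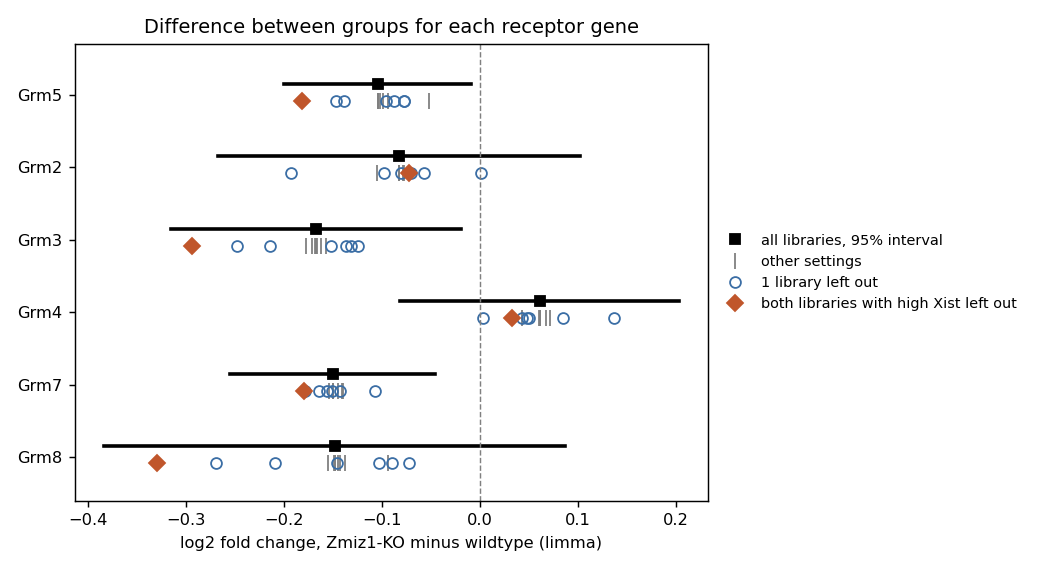
Log2 fold change of each receptor gene (Zmiz1-KO minus wildtype, limma), with its 95% interval from all libraries in black, and below it the estimates with 1 library left out, with both libraries of high Xist left out, and under the other settings. Grm3, Grm5, Grm7 and Grm8 stay below 0 in every estimate and Grm4 stays above, while 1 estimate of Grm2 lies at 0.0016.

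Levels of different genes were compared per kilobase (kb) of the union of their exons. In wildtype, Grm5 had 854 ± 37.0 normalized counts per kb, Grm3 478 ± 44.8, Grm7 418 ± 22.3, Grm2 360 ± 48.3, Grm4 208 ± 20.0 and Grm8 40.9 ± 5.75 (SD, n = 3). The order was the same in the libraries labelled Zmiz1-KO, where the levels were 795 ± 41.7, 425 ± 24.3, 376 ± 3.49, 338 ± 6.45, 216 ± 6.12 and 36.7 ± 3.04 normalized counts per kb (SD, n = 3). Grm5 stood above and Grm8 below the rest without overlap in each library. The wildtype ranges of Grm3 and Grm7 overlapped, from 427 to 507 and from 401 to 443 normalized counts per kb, and so did those of Grm7 and Grm2, which reached from 307 to 402 for Grm2. Over the longest transcript instead of the union of exons, Grm7 stood at 584 normalized counts per kb and above Grm3 at 478, so the order of these 2 genes rests on the length that is used. Grm5, with 36.2% of the summed level per kb of the 6 genes in wildtype and 36.3% in the libraries labelled Zmiz1-KO, took nearly the same share in both groups. The group II genes together took 35.5% and 34.9%, and the group III genes took 28.3% and 28.8%. These 3 shares differed between the groups by less than the SD of the wildtype libraries, which was 0.43, 1.18 and 0.76 percentage points, whereas the shares of Grm7 and Grm4 alone differed by more than that SD. Grm7 took 17.7% ± 0.29 in wildtype and 17.2% ± 0.63 under the label Zmiz1-KO, and Grm4 took 8.82% ± 1.03 and 9.88% ± 0.30 (SD, n = 3 per group). Both shares overlapped between the groups. Grm7 ran from 17.4% to 17.9% in wildtype and from 16.6% to 17.8% in the other group. Grm4 ran from 7.72% to 9.76% and from 9.62% to 10.2%. The difference of Grm7 was also smaller than the SD of the libraries labelled Zmiz1-KO. Over the longest transcript the order of groups II and III turned. There group II took 29.6% in wildtype and 29.1% under the label Zmiz1-KO, and group III took 32.6% and 33.0%.

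**Figure D3:**
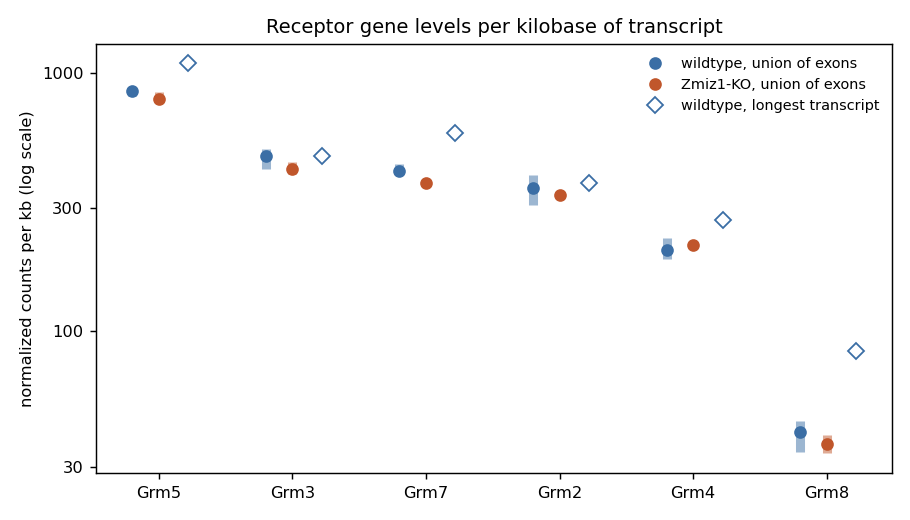
Normalized counts per kb of transcript for each receptor gene, on a log scale, with the group mean (point) and range (bar) over the union of exons and, as open diamonds, the wildtype mean over the longest transcript. Grm5 lies highest and Grm8 lowest, and Grm7 passes Grm3 when the longest transcript is used.

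Some of the receptor genes varied together over the libraries. Over the 6 libraries, Pearson's r of the log2 values was 0.96 between Grm5 and Grm3, 0.93 between Grm3 and Grm8 and 0.87 between Grm5 and Grm8. Grm2 and Grm4 ran against each other, with r = -0.93, and wildtype replicate 2 held the lowest value of Grm2 and the highest of Grm4. These are descriptions over 6 libraries that share a normalization, and 107 to 323 of 12781 genes compared reached an r above 0.9 with each of the receptor genes. Among the genes most alike were Nf1 (r = 0.993) for Grm5, Dnaja1 (0.997) and Mpv17l (0.994) for Grm2, and Anapc10 (0.996) and Mettl15 (0.993) for Grm3. For Grm4 they were Ech1 (0.987) and Emilin2 (0.986), for Grm7 Mfsd14a (0.993) and Hmgcs1 (0.993), and for Grm8 Dscam and Pkd2 (0.979 each). None of these genes passed the threshold between the groups. The spread was wider in wildtype for 5 of the 6 receptor genes, with coefficients of variation of 13.4% against 1.91% for Grm2 and 5.33% against 0.928% for Grm7, and narrower for Grm5, with 4.33% against 5.24%. Whether these spreads differ was not tested. Wildtype replicate 1 held the highest wildtype value of 5 of the 6 genes, all but Grm4.

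Of the 14 genes that supply, load or clear the receptors' ligands glutamate and NAAG, 1 was called lower and 0 higher, against 0.247% and 0.165% of all tested genes. The gene that passed was Glul, which codes for the glutamine synthetase of astrocytes, the enzyme that turns recaptured glutamate into glutamine. Wildtype replicates 1, 2 and 3 held 15277, 14679 and 14392 normalized counts of Glul, against 12386, 12825 and 11967 under the label Zmiz1-KO. The groups did not overlap, and the log2 difference was -0.25 (SE 0.039, adjusted p = 0.00542 in limma). Glul no longer passed without replicate 1 or replicate 3 labelled Zmiz1-KO (limma adjusted p = 0.0506 and 0.0967), although the estimate stayed between -0.28 and -0.23 with each library left out. The median log2 fold change of the list was -0.037. Slc7a11, the cystine-glutamate exchanger that releases glutamate outside synapses, had the largest estimate of the list at 0.61, but its limma adjusted p was 0.803. Its value was 2030 normalized counts in wildtype replicate 1 and 6847 to 7471 in the other 5 libraries, and without wildtype replicate 1 its log2 fold change was 0.00078.

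Among 19 genes of the Gq pathway and its postsynaptic partners, 0 passed in limma, and 3 did at an unadjusted p under 0.05, 2 higher and 1 lower, against the 11.0% of all tested genes. The median log2 fold change was 0.0022. Homer1, whose protein binds the tail of mGluR5, had 2530 ± 210 normalized counts in wildtype and 2321 ± 99.4 in the libraries labelled Zmiz1-KO (SD, n = 3 per group), a difference of -0.12 on the log2 scale (adjusted p = 0.473 in limma). The estimate for Homer1 was -0.027 after correction for GC content and length, and ran from -0.19 to -0.068 with each library left out. Grasp, which encodes the scaffold tamalin that binds group I receptors, had 285 ± 35.0 and 340 ± 8.69 (SD, n = 3 per group), a difference of 0.26 on the log2 scale (adjusted p = 0.379 in limma). The 3 values of Grasp did not overlap between the groups, and without wildtype replicate 1 the difference was 0.16.

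The 26 genes of Gi and Go coupling and of the presynaptic partners also had 0 calls in limma, and 6 at an unadjusted p under 0.05, 4 higher and 2 lower, against 5.13% and 5.84% of all tested genes. Their median log2 fold change was 0.0050. Gng7, a G-protein gamma subunit best known from the striatum, reached 9424, 10572 and 11039 normalized counts in the wildtype replicates 1, 2 and 3, against 12326, 13066 and 11499 under the label Zmiz1-KO. The groups did not overlap, and the log2 difference was 0.25 (SE 0.064, adjusted p = 0.185 in limma), which passed the threshold with Xist as a covariate (limma adjusted p = 0.0138). The 6 striatal markers in the table were all above 0 in log2 fold change, with 0 called and a median of 0.33, and their part in the Gng7 values was not tested. Elfn1, a cell surface protein that recruits mGluR7 across the synapse, had 1215 ± 84.8 and 1355 ± 59.7 normalized counts (SD, n = 3 per group), a difference of 0.16 on the log2 scale (adjusted p = 0.353 in limma), and thus an estimate opposite in sign to that of Grm7. Elfn1 was at 0.10 without wildtype replicate 3 and at 0.084 without both libraries with high Xist. Of the 7 genes of receptor kinases and arrestins, which shut off G-protein-coupled receptors, 0 passed in limma and 0 had an unadjusted p under 0.05, with Grk5 at -0.064 and Grk3 at 0.038 as the largest estimates in size. With each library left out, Grk3 ran from 0.0074 to 0.087 and Grk5 from -0.13 to 0.024.

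**Figure D4:**
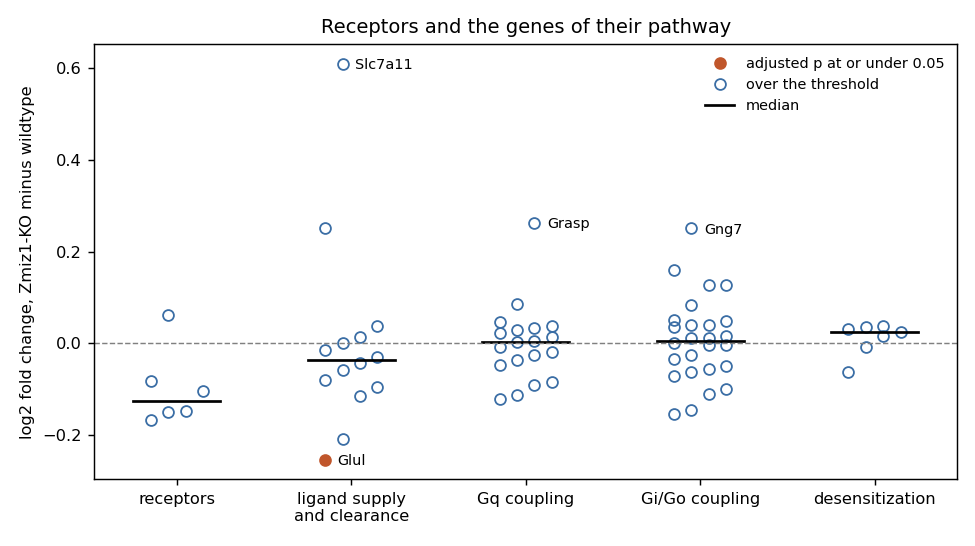
Log2 fold change (Zmiz1-KO minus wildtype) of the 6 receptor genes and of the 4 lists of pathway genes, with the median of each list as a bar. Glul, the filled point, is the only gene of these lists past the threshold, and the median of the receptor genes, -0.13, lies below those of the 4 lists.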

How the data were processed

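RNA of P7 cortices in 3 libraries labelled wildtype and 3 labelled Zmiz1-KO was sequenced with a kit that does not keep the strand. The authors aligned the reads to mm10 with STAR in Illumina BaseSpace and normalized the counts with DESeq2, and the deposited values are this normalized signal, called normalized counts here. Versions and the gene annotation are not given in the sources used here. Low values lay near multiples of 1.83 to 2.11, within 0.1 of a step, for 87.6 to 91.5% of cases. High values did so for 19.7 to 21.0%, about the share that evenly spread values would give at this tolerance. A small error in the step would give the same share, so this check cannot tell whether high values are scaled whole counts. Whole reads were not recovered and no count test was run. Read estimates per library are sums divided by that step.

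Libraries were grouped by title. Genes that reached 10 normalized counts in 3 or more libraries were compared on log2(value + 1) by limma 3.58.1 in R 4.3.3, using an intensity trend, robust estimation and no covariate. The two-sided p values were adjusted after Benjamini-Hochberg over all 15800 tested genes. Intervals are 95%. Fold changes are on the log2(value + 1) scale. The fit was tested on simulated data.

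Gene models are from GENCODE on GRCm38. Of the 75-base stretches of member transcripts, none of Grm3, Grm4 or Grm5, 0.944% of Grm7, 0.220% of Grm8 and 7.98% of Grm2 occur in other genes. The members and lists were chosen with earlier results of these data known. Named in the text are the members, Zmiz1, in each of the 4 pathway lists the genes past the threshold and the 2 with the largest change, the 2 genes most correlated with each member among those with a mean of at least 100, and the markers. One of the correlated genes is not reported here. Slc17a7, Xist and Aqp4 were named as checks. Grasp is the table's symbol for Tamalin.

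Alternatives were a pseudocount of 0.1 or 10, no filter or 10 normalized counts required in all libraries, median-ratio and upper-quartile scaling, limma-voom, no robust estimation, an adjusted p of 0.1, the replicate number as a block, Xist as a covariate, omission of both libraries with high Xist, correction for GC content and length (known for 98.9% of tested genes), and each library left out in turn. The comparison of male and female libraries was added after the data were seen.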

Additional observations from a re-analysis of the deposited data

Results flagged for a closer look

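In the 4 male libraries, both values labelled Zmiz1-KO of Grm3, Grm5 and Grm8 lay below both wildtype values, while in the female libraries, 1 per group, the value labelled Zmiz1-KO was the higher. This comparison was made after the data were seen, and sex was read from Xist and Ddx3y. For Grm3 the male libraries had 1545 and 1530 normalized counts in wildtype and 1267 and 1241 in the other group, a log2 fold change of -0.29, and the female libraries had 1301 and 1380, a difference of 0.086. The difference between these effects, female minus male, was 0.38 for Grm3 (limma interaction, adjusted p = 0.352), 0.23 for Grm5 (adjusted p = 0.394) and 0.54 for Grm8 (adjusted p = 0.471), and none of them passed the threshold. It was passed by 24 of the 15800 tested genes. The same order, lower in both males and higher in the female labelled Zmiz1-KO, was found in 10.5% of all tested genes, and with 1 female library per group, a sex difference and the particular library cannot be told apart.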

How the results depend on the processing

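Under 19 alternatives, 112 of the 114 refitted differences of the receptor genes kept their sign and their side of the threshold. The exceptions were Grm3 without both libraries with high Xist (-0.29, the only receptor gene called there, so a count of 1 against 0) and Grm2 without wildtype replicate 1 (0.0016). At an adjusted p of 0.1 the main fit was used again, so no sign could change there. The other filters, omission of robust estimation and the replicate number as a block left each log2 fold change as it was. No sign could change in those fits either, only the side of the threshold. Median-ratio scaling hardly altered the already normalized values, and the log2 fold change of Grm5 stayed at -0.10. These settings thus add little to the tally. Without both libraries with high Xist, Grm8 moved from -0.15 to -0.33 and Grm5 from -0.10 to -0.18 (limma adjusted p = 0.0662 for Grm5). For Grm3, Grm5 and Grm8 these were the lowest wildtype library and the highest of the other group, so their omission had to widen the difference. With Xist as a covariate and all libraries kept, Grm5 was at -0.10 and Grm8 at -0.15 (limma adjusted p = 0.452 and 0.689). With each library left out in turn, the log2 fold change ran from -0.15 to -0.077 for Grm5, -0.19 to 0.0016 for Grm2, -0.25 to -0.12 for Grm3, 0.0037 to 0.14 for Grm4, -0.18 to -0.11 for Grm7 and -0.27 to -0.072 for Grm8, and the count of receptor genes called was 0 in all 6 fits. Counting error at the lowest library was 1.60% of the value for Grm5, 3.01% for Grm7 and 7.79% for Grm8, so depth limits Grm8 most.

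The count over all tested genes, 65, was 17 without robust estimation, 106 at an adjusted p of 0.1, 146 without both libraries with high Xist, and 12 to 151 with each library left out (30 without wildtype replicate 1, and 17, 151 and 12 without replicates 1, 2 and 3 labelled Zmiz1-KO). Upper-quartile scaling called 31 genes higher and 33 lower, against 26 and 39, and correction for GC content and length 23 and 23. Of the pathway genes, 1 was called, and 2 with Xist as a covariate (Glul and Gng7), with 0 to 1 when each library was left out. Grk5 reversed to 0.060 without both libraries with high Xist, and ran from -0.13 to 0.024 with each library left out. The cause of these changes was not tested.

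With the replicate number as a block, 168 genes were called, none of them a receptor gene. The numbers come from the titles, which name no pairing. Deviations from the group means correlated at -0.0051, -0.11 and -0.0063 for the same-numbered libraries 1, 2 and 3. With 3 libraries per group, these correlations cannot exclude a shared litter or batch. Over the longest transcript, the wildtype levels per kb were 1088 for Grm5, 269 for Grm4, 584 for Grm7 and 84.3 for Grm8.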
